A study of Mus musculus with 14 samples.

Results

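The comparison set 5 RNA-seq libraries labelled Cep120 KO (replicates 2, 4, 5, 6 and 7) against 3 controls of the same line (replicates 1, 2 and 3). These 8 libraries were chosen from the 14 of the series by their titles and genotype labels. The rest of the series is of the Pkd1 line, its controls and Pkd1 KO libraries. They enter only the fit of all 14 libraries and, where named, as outside values, and their embryonic age is not given here. All 8 libraries of the comparison came from mouse kidneys at E13.5, that is, in midgestation. The kidneys were dissociated with enzymes and GFP-positive cells were sorted. Hoxb7-Cre, the transgene that carries the GFP, acts in the ureteric bud and its branches, so Cep120 is deleted there and kept in the other cells of the kidney. The KO libraries are labelled Cep120 KO by genotype. The controls are labelled WT by genotype, while their titles call them het, and the labels do not say which allele that word refers to or whether the controls carry a floxed allele. Nor do they say whether replicates were separate embryos, litters or pools, so each test here measures the spread between libraries, which may be technical. The GFP sort and the SMARTer Ultra Low kit, which amplifies full-length cDNA without marking the strand, were common to all 8.

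CEP120 is a centriolar protein needed to lengthen new centrioles and assemble their appendages, and cells that lose it come to lack centrosomes and cilia. Cells that divide without centrosomes spend longer in mitosis. The mitotic surveillance pathway, in which 53BP1 and USP28 act together, then stabilises p53, and p53 switches on genes for cell cycle arrest, repair and death. In the kidney the ureteric bud branches under RET signalling to form the collecting ducts, and its tips keep the surrounding nephron progenitors growing. The series' design text asks which pathways are disturbed in the bud when centrosomes are lost, at the onset of the developmental defect.

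The libraries held 16293803 to 27475859 reads assigned to genes, and they did not fall into a KO and a control set of equal tightness. A pair of controls differed by 3.65 to 3.93 times the noise of read sampling. KO library 2 differed from the controls by 3.48 to 4.67 times that noise and from the other KO libraries by 7.59 to 13.2 times. KO libraries 4 and 5 differed from the controls by 7.78 to 9.32 times and from each other by only 1.82 times, the smallest value of any pair of the 8; no label tells whether they had a common source. KO libraries 6 and 7 lay farthest from the controls, at 13.4 to 14.1 times. TMM scaling factors, which fall when few abundant genes take many of the reads, ran from 0.794 to 0.865 in the controls and KO library 2 and from 1.149 to 1.249 in KO libraries 4 to 7. Mitochondrially encoded genes took 3.955 to 5.693% of the reads in the controls and 2.15 to 4.692% in the KO libraries. No label names a batch. Since KO libraries 4 to 7 have no controls that stand apart with them, whatever sets them apart and the deletion cannot be told apart.

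Defining markers of the ureteric bud were present in all 8 libraries, and the summed nephron progenitor and stromal lists set KO libraries 6 and 7 apart. The RET receptor gene Ret was at 114, 100 and 75.0 CPM (read counts scaled by TMM to a common library size) in controls 1 to 3, at 93.2, 102 and 109 CPM in KO libraries 2, 4 and 5, and at 36.2 and 43.6 CPM in KO libraries 6 and 7. Hoxb7, whose promoter drives the transgene, was at 69.5 to 104 CPM throughout. The summed level of 28 ureteric lineage and epithelial genes was 4670 to 5070 CPM in the controls, 4990 to 7030 CPM in KO libraries 2, 4 and 5, and 1880 and 2240 CPM in KO libraries 6 and 7. The 18 listed nephron progenitor genes summed to 66.2 to 81.5 CPM in the controls, 40.4 to 47.5 CPM in KO libraries 2, 4 and 5, and 1680 and 1370 CPM in KO libraries 6 and 7. Stromal genes summed to 62.1 to 183 CPM in the controls, 76.7 to 116 CPM in KO libraries 2, 4 and 5, and 775 and 782 CPM in KO libraries 6 and 7. Of the defining markers of these cells, Six2 (134 and 91.2 CPM) and Foxd1 (5.04 and 3.34 CPM) were above every control in KO libraries 6 and 7. Cited1 was not, at 53.4 and 35.1 CPM against 60.2, 37.3 and 43.3 CPM in controls 1 to 3. Nor was Pdgfra, at 1.36 and 1.95 CPM against 0.319, 2.47 and 0.0 CPM. The neural crest gene Sox10 had no read in any of the 8. In a bulk sample, fewer cells of a type and less RNA per cell cannot be told apart.

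Cep120 RNA itself was not lower in the KO libraries. The gene (ENSMUSG00000048799, GRCm38 chromosome 18, 53681723 to 53744608) was at 11.5, 6.75 and 9.87 CPM in controls 1 to 3, from 181, 156 and 154 reads. KO libraries 2, 4, 5, 6 and 7 had 8.25, 19.5, 21.1, 13.7 and 17.4 CPM, from 120, 366, 517, 365 and 517 reads. KO library 2 lay inside the control range and the other 4 lay above it. The log2 difference was 0.77 (SE 0.35), with a Benjamini-Hochberg adjusted p of 0.19 in edgeR's quasi-likelihood test and of 0.00156 to 0.434 over the alternatives run. The labels do not name the deleted exons, and reads from undeleted exons would still be counted, so these values neither support nor contradict the genotype label.

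Across all protein-coding genes, few differences were shared by the 5 KO libraries and most came from some of them. In edgeR's quasi-likelihood test on the 8 libraries, 0 of 13283 genes (0.0%) passed a Benjamini-Hochberg adjusted p of 0.05, the smallest being 0.128. At an unadjusted p under 0.05 the test had 2090 genes higher (15.7%) and 1479 lower (11.1%) in the KO libraries. With the spread estimated from all 14 libraries, edgeR called 1357 of 13736 genes higher (9.88%) and 1086 lower (7.91%). DESeq2 on the 8 libraries called 1899 genes, limma-voom with quality weights 5652 and limma-trend on the authors' log2 values 0. Leaving out KO library 2 raised edgeR's count to 3620, 1949 higher and 1671 lower. Leaving out control 3 gave 1 call, the platelet chemokine gene Ppbp, named after its values were seen. It had 30.5 and 133 CPM in controls 1 and 2, no read in control 3 and at most 1.12 CPM in the KO libraries. No other single library changed the count of 0.

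Because no gene passed the test, the genes are described by how many KO libraries lay beyond the controls. In 855 genes (6.44%) every KO library lay above every control, and in 1282 genes (9.65%) every KO library lay below every control. The median transcript length was 4390 bases in the higher set, 1860 bases in the lower set and 3410 bases over all genes tested. Total-count scaling, which moves the median log2 difference of all genes from 0.11 to 0.55, turned these counts into 1868 higher and 590 lower, and the deposited TPM values into 2827 and 240. Offsets for length and GC content gave 720 and 634. Under each of these scalings and RLE, 401 of the 855 higher genes and 97 of the 1282 lower genes were on the same side. The KO libraries are the same in that comparison, so it is no separate evidence: of the 855, 291 (34.0%) also lay above all 3 controls of the Pkd1 line, which this comparison does not use, against 635 (4.78%) of all genes tested. Of the 1282, 258 (20.1%) also lay below those controls, against 561 (4.22%).

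A margin of at least 1.5-fold beyond the control range left 74 genes (0.557%) higher and 55 genes (0.414%) lower in all 5 KO libraries. Just inside the margin were Bcl2l11 and Atox1, each at 1.5-fold after rounding, and just outside it were Usf3 at 1.49-fold and Tst at 1.5-fold after rounding. Far more genes were beyond the margin in some libraries only. In KO libraries 4, 5, 6 and 7 but not 2 there were 1094 higher genes (8.24%) and 799 lower genes (6.02%). In KO libraries 6 and 7 alone there were 1547 higher (11.6%) and 1297 lower (9.76%). KO library 2 was alone in 130 higher and 627 lower genes, KO library 7 in 427 and 243, and KO library 6 in 363 and 488. The genes of all 5 made up 18% of the 410 genes beyond the upper margin in KO library 2, but 3.55% of the 2085 in KO library 4.

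**Figure D1:**
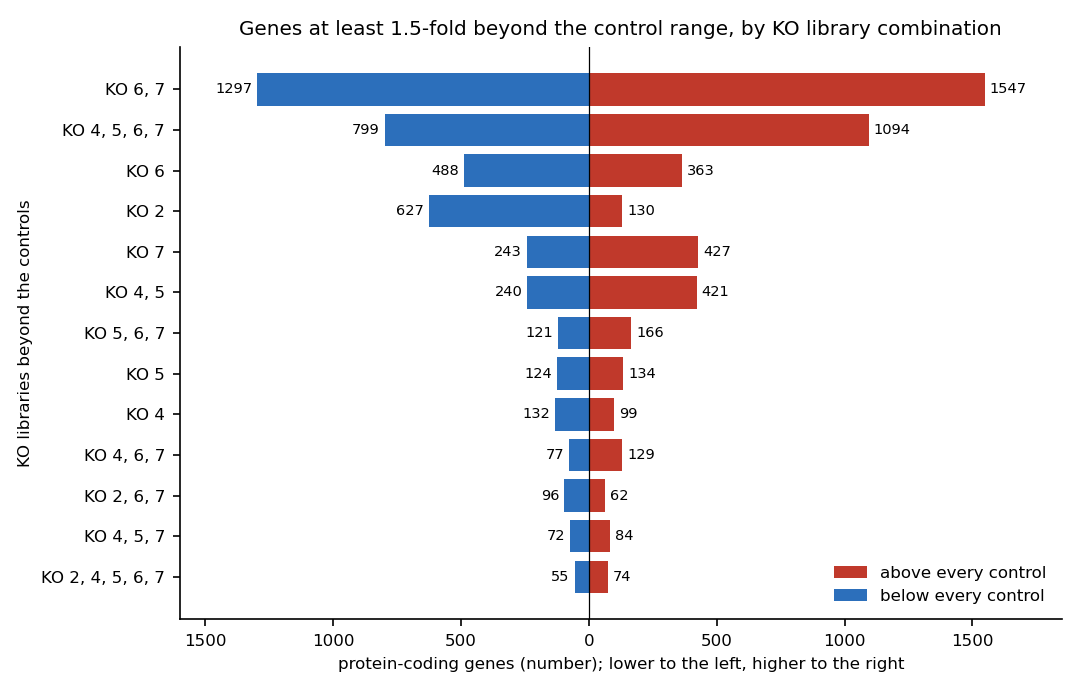
Number of protein-coding genes at least 1.5-fold above (red, to the right) or below (blue, to the left) all 3 controls, by the combination of KO libraries in which this held. The bars for libraries 6 and 7 (1547 and 1297 genes) and for libraries 4 to 7 (1094 and 799) are longer than those for all 5 libraries (74 and 55).

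Among genes with a mean of at least 5 CPM, the widest gap between all KO and all control libraries was that of Plk2, a polo-like kinase gene that p53 induces. Plk2 (ENSMUSG00000021701, GRCm38 chromosome 13, 110395046 to 110400844) was at 11.5, 14.6 and 14.1 CPM in controls 1 to 3. It was at 42.1 CPM in KO library 2 and at 83.6, 79.8, 95.6 and 93.8 CPM in KO libraries 4 to 7. The lowest KO library lay 2.87-fold above the highest control. The log2 difference was 2.56 (SE 0.31), with an edgeR quasi-likelihood Benjamini-Hochberg adjusted p of 0.128 on the 8 libraries, of 0.00849 with all 14, and of 1.73e-12 to 0.337 over the alternatives. In the 3 Pkd1-line controls Plk2 was at 9.26 to 19.8 CPM, below every Cep120 KO library.

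The other 9 genes with the widest upward gaps had lower levels and smaller gaps than Plk2, and all 5 KO libraries lay above all 3 controls in each by the way they were chosen. Atg16l2, a relative of the autophagy gene Atg16l1, was at 1.54 to 2.48 CPM in the controls and 6.26 to 13.1 CPM in the KO libraries. Zbtb40, a zinc finger gene, was at 2.42 to 2.94 against 7.26 to 9.64 CPM. Usp30, which encodes a deubiquitinase of the mitochondrial outer membrane, was at 2.24 to 3.03 against 6.32 to 9.33 CPM. KO library 2 was the lowest KO library in Atg16l2 and Usp30, but lay above KO libraries 4, 5 and 6 in Zbtb40. Mcam, a cell adhesion gene, was highest in KO libraries 4 and 5, at 16.0 and 18.1 CPM, with 10.0, 12.8 and 9.10 CPM in KO libraries 2, 6 and 7 and at most 4.63 CPM in a control. Sik2, a salt-inducible kinase gene, was at 1.21 to 2.37 against 4.61 to 9.47 CPM, and Lipe, the hormone-sensitive lipase gene, at 5.67 to 7.69 against 14 to 17.4 CPM. Dhx57, Sipa1l2 and Krba1 had log2 differences of 2.51 (SE 0.48), 2.24 (SE 0.52) and 1.84 (SE 0.30). All but Dhx57 of the 10 genes also lay above the Pkd1-line controls, and all but Sipa1l2 lay above their own controls under all 5 scalings.

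The widest downward gaps included a lipid enzyme gene, Coro1a of the leukocyte list, the platelet gene Pf4, and genes of glutathione and redox metabolism. Mogat2, a monoacylglycerol acyltransferase gene, was at 17.0, 14.3 and 15.4 CPM in the controls and 6.87, 5.93, 5.55, 5.04 and 3.61 CPM in KO libraries 2, 4, 5, 6 and 7. Chac2 and Ggct, which encode cyclotransferases of the glutathione cycle, had log2 differences of -1.30 (SE 0.31) and -1.03 (SE 0.24). Pir, a redox-sensitive nuclear protein gene, was at 9.30 to 15 against 3.51 to 5.43 CPM, and the quinone reductase gene Nqo1 at 11 to 12.9 against 2.73 to 6.94 CPM. The caveolin gene Cav1 was at 14.1 to 17.3 against 2.41 to 8.32 CPM. Sct, which encodes the hormone secretin, was at 14.6 to 22.4 against 4.03 to 8.66 CPM. Paqr6, a membrane progestin receptor gene, ranged from 0.715 to 6.66 CPM within the KO group, a spread carried by KO library 6. Mogat2, Coro1a, Pir, Cav1 and Sct kept their side under all 5 scalings, while Chac2, Paqr6, Ggct, Pf4 and Nqo1 did not. Of these 10 genes, 6 also lay below the Pkd1-line controls in every KO library, and Pir, Cav1, Paqr6 and Pf4 did not.

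**Figure D2:**
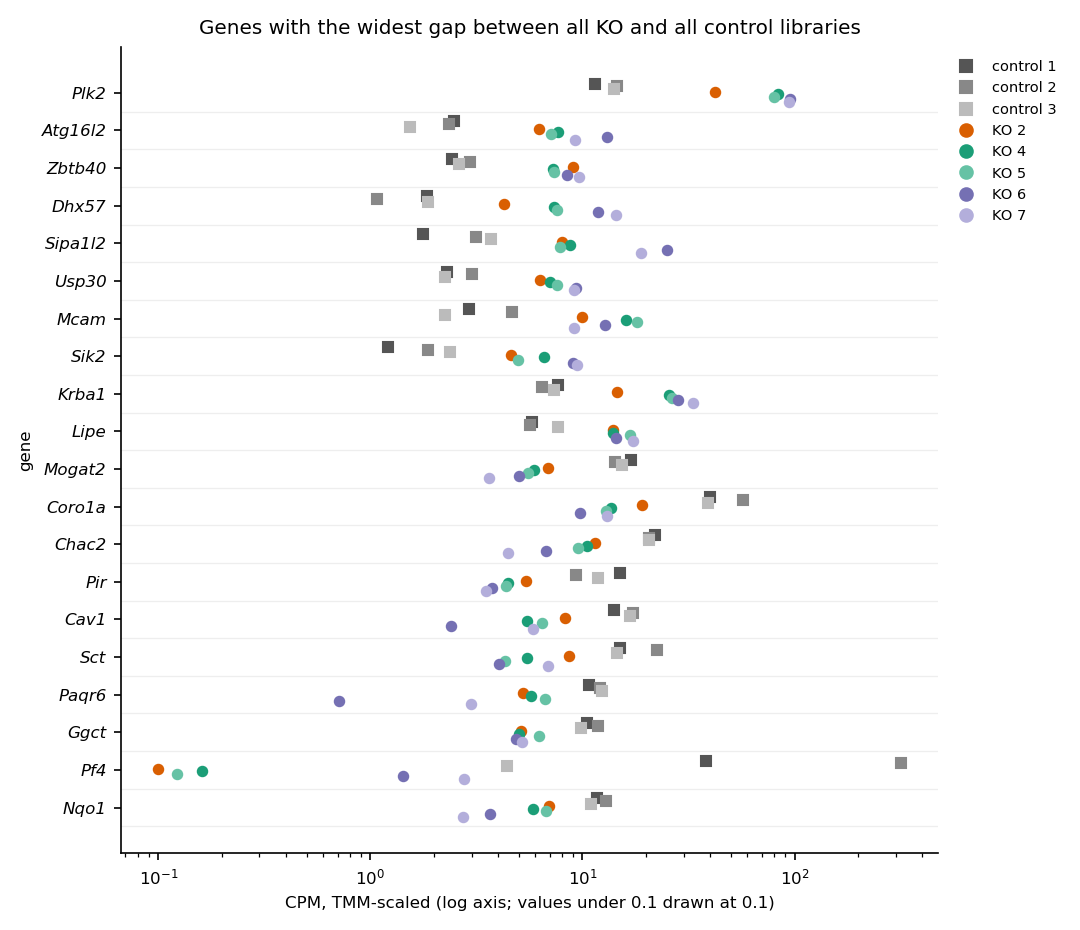
TMM-scaled CPM on a log axis for the 10 genes with the widest gap above and the 10 with the widest gap below all controls, with squares for the 3 controls and circles for the 5 KO libraries. In Plk2 the KO libraries sit between 42.1 and 95.6 CPM and the controls between 11.5 and 14.6 CPM, and in most genes KO library 2 is among the KO libraries nearest to the controls.

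Genes that p53 activates were among those above the controls in all 5 KO libraries. Of 36 measured target genes on the lists for arrest and repair and for cell death, 13 (36.1%) lay above every control and 0 below, against 6.44% and 9.65% of all genes, and the median log2 difference of the 36 was 0.91 against 0.11 over all genes. Earlier results of these data were known when the lists were written, so their direction is not independent evidence. Of the 13, 9 also lay above all Pkd1-line controls, 8 were above their controls under all 5 scalings, and 12 were called with all 14 libraries in the edgeR fit. The median of the arrest and repair list was 0.65 in KO library 2, 1.01, 1.09 and 0.90 in KO libraries 4, 5 and 6, and 0.44 in KO library 7, each as the difference from the control mean in log2 CPM. For the death list these medians were 0.47, 0.86, 0.90, 0.93 and 0.81. The same median over all genes was -0.04 in KO library 2 and at most 0.15 in the others. Length and GC offsets took the median log2 difference from 0.95 to 0.76 for the arrest and repair list. For the death list they took it from 0.85 to 0.30. Under all 5 scalings, 5 of 7 higher arrest and repair genes and 3 of 6 higher death genes kept their side.

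Among the arrest and repair genes, Cdkn1a, which encodes the cell cycle inhibitor p21, was at 47.5, 42.3 and 42.9 CPM in the controls. KO libraries 2, 4, 5 and 6 had 90.1, 93.2, 110 and 84.8 CPM, but KO library 7 had 47.6 CPM, barely above control 1. Its log2 difference was 0.94 (SE 0.27). The stress sensor gene Sesn2 was at 5.77 to 7.31 CPM in the controls, 8.39 CPM in KO library 2 and 20.6 to 23.7 CPM in KO libraries 4 to 7. Psrc1, a microtubule regulator gene, was at 15.8 to 18 CPM in the controls and 26.2, 34.0, 41.1, 63.8 and 42.5 CPM in the KO libraries. The other 3 of this list above every control were Polk, a translesion DNA polymerase gene, Gtse1, which encodes a regulator of p53, and Phlda3, a repressor of AKT signalling.

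Among the death genes, KO library 2 had the highest level of Eda2r, a death receptor gene of the TNF receptor family. Eda2r was at 1.15, 1.08 and 0.961 CPM in the controls and at 10.8, 5.61, 6.94, 4.74 and 1.92 CPM in KO libraries 2, 4, 5, 6 and 7 (log2 difference 2.49, SE 0.57). Bbc3, which encodes the death-promoting protein PUMA, was at 0.701 to 1.41 CPM in the controls and 3.57, 2.03, 1.72, 16.4 and 8.80 CPM in the KO libraries. The nuclease gene Aen was at 37.8 to 40.1 CPM against 54.4 to 98.1 CPM, with a log2 difference of 0.94 (SE 0.22). Pidd1, which links p53 to caspase-2, was at 15.6 CPM in KO library 2 against 15.5 CPM in control 3, so its place above the controls rests on a difference smaller than the spread of the controls. Dapk1, a death-associated kinase gene, and Trp53i11 completed the set, at 23.6 and 32.3 CPM in their lowest KO library against 23.3 and 29.6 CPM in their highest control.

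The start-site windows of these 13 genes were searched for the decamer to which p53 binds, on both strands, because these genes lay above the controls together. RefSeq gives 20 windows for them, from 250 bases before to 50 bases after a transcription start (GRCm38.p6). The decamer was in 5 windows (25.0%), against 8.36% of all 32851 windows and 6.96% of those of the genes tested. The genes come from lists of p53 targets, so this share partly follows from how they were chosen. It was 3.95% (3 of 76 windows) for all genes at least 1.5-fold above the controls in all 5 KO libraries and 5.86% for those in KO libraries 4 to 7 only. Other motifs were searched as well. TGAGTCA, the AP-1 site, was in 0 of the 20 windows, against 3.55% for the genes tested. The cAMP response element TGACGTCA was in 1 of them, against 2.94%. The TEAD site, read as GGAATG, was in 2, against 12.2%. The antioxidant response element, read as TGACNNNGC, was in 3, against 14.1%. These 5 windows belong to Aen, whose 2 windows overlap and share 1 match, Polk, Gtse1 and Cdkn1a. The first 2 sequences below hold a match, in capitals, and the third, of Plk2, holds none. Aen lies on the plus strand at chr7:78895808-78896107, Cdkn1a on the plus strand at chr17:29090729-29091028 and Plk2 on the plus strand at chr13:110394794-110395093.
Aen: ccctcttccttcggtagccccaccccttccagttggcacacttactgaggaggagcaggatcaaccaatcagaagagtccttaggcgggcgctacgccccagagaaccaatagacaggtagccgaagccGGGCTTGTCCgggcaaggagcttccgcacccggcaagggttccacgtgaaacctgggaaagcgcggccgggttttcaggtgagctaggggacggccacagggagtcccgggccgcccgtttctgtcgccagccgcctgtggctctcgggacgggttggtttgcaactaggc
Cdkn1a: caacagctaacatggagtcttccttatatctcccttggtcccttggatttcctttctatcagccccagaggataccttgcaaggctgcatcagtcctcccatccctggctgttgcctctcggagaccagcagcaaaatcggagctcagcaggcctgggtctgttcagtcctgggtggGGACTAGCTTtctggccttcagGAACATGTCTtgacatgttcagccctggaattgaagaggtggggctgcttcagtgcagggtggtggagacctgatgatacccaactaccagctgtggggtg
Plk2: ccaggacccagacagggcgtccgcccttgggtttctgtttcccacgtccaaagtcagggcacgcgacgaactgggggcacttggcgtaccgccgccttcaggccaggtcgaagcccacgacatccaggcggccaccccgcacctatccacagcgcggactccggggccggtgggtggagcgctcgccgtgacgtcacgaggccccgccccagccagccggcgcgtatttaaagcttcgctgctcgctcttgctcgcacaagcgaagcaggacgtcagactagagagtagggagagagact
The match in Aen begins 121 bases before the start site, and those in Cdkn1a begin 73 and 51 bases before it. A match is a description of the letters and shows no binding, and the absence of a match in Plk2 says only that these letters are not in this window.

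The genes listed for the surveillance pathway itself were less uniform. Of 12 genes, 3 (25.0%) lay above every control and 1 (8.33%) below, against 6.44% and 9.65% of all genes. The 3 were Trp53bp1, Cdkn1a and Pidd1, of which Cdkn1a and Pidd1 are p53 targets already counted above. The 1 below was Cradd, which encodes an adaptor of the PIDD complex, and the list's median log2 difference was 0.55. Trp53bp1, the gene of 53BP1, was at 20.1, 22.9 and 27.4 CPM in the controls, at 29.1 CPM in KO library 2 and at 44.6 to 55.9 CPM in KO libraries 4 to 7. The list's median in KO library 2 was -0.18, below the controls, against 0.46 to 0.84 in KO libraries 4 to 7. Offsets for length and GC content lowered the list's median log2 difference to 0.25. None of the 3 higher genes kept its side under all 5 scalings. Of 23 apoptosis regulators, only Bcl2l11 (4.35%), the gene of the death-promoting protein BIM, lay above every control. It was at 10.5 to 11.5 CPM in the controls, at 17.3 to 23.0 CPM in KO libraries 2, 4 and 5, and at 63.5 and 51.7 CPM in KO libraries 6 and 7. Cycs, Casp6 and Bad lay below every control, and the list's median of -0.21 turned to 0.17 with total-count scaling.

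Immediate early genes are transcription factor and feedback genes that cells switch on soon after a stimulus, and their level in KO library 2 lay between those of the controls and of the other KO libraries. Of 28 genes, 9 (32.1%) lay above every control and 0 below, against 6.44% and 9.65% of all genes. At least 1.5-fold above the controls in KO libraries 4 to 7 only were 14 of the 28, against 8.24% of all genes. The list's median was 0.37 in KO library 2 and 1.69 to 2.07 in KO libraries 4 to 7. Atf3, a stress-induced transcription factor gene, was at 0.446, 1.86 and 0.128 CPM in the controls, 2.96 CPM in KO library 2 and 44.6, 44.4, 30.6 and 10.9 CPM in KO libraries 4 to 7. Dusp1, a MAP kinase phosphatase gene, was at 1.86 to 4.10 CPM in the controls, 7.15 CPM in KO library 2 and 9.03 to 25.2 CPM in KO libraries 4 to 7. Klf6, a zinc finger factor gene, was at 34.6 to 39.1 CPM, 54.8 CPM and 119 to 177 CPM in the same order. KO library 2 was thus above the controls but below the other KO libraries in each of these genes. Egr1, by contrast, was at 12.8 to 14.5 CPM in the controls, 11.8 CPM in KO library 2 and 129 to 174 CPM in KO libraries 4 to 7.

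Some targets of the Hippo effector YAP were also higher, mostly in KO libraries 4 to 7. Of 22 genes, 5 (22.7%) lay above every control, against 6.44% of all genes, and 0 below, with a median log2 difference of 1.09, or 0.49 with length and GC offsets. Ccn1, a matricellular protein gene, was at 44.4, 39.5 and 49.5 CPM in the controls and 80.0 CPM in KO library 2. KO libraries 4 and 5 had 633 and 630 CPM and KO libraries 6 and 7 had 270 and 259 CPM (log2 difference 3.07, SE 0.64). Amotl2, an angiomotin family gene that restrains YAP, was at 6.14 to 7.31 CPM, 8.04 CPM and 21.2 to 34.3 CPM in controls, KO library 2 and the others. Arhgef17, a guanine nucleotide exchange factor gene, was at 3.65 to 9.30 CPM, 10.9 CPM and 28.2 to 34.5 CPM. The median of the list in KO library 2 was at the control mean, so the library's place above the controls in these 5 genes was not shared by the list.

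Stress genes went both ways. In the integrated stress response, 4 of 20 genes lay above every control and 4 below. The 4 above were Ddit3, which encodes CHOP, Ppp1r15a, which encodes the phosphatase subunit GADD34, Sesn2 and Herpud1, and the 4 below were Asns, Phgdh, Shmt2 and Mthfd2, enzymes of amino acid and folate metabolism. Ddit3 was at 2.61 to 3.55 CPM in the controls, 4.47 CPM in KO library 2 and 12 to 17.5 CPM in the other KO libraries. Ppp1r15a was at 9.42 CPM in KO library 2 against 9.29 CPM in control 3, and at 44.7 to 92 CPM in the other KO libraries. Of 23 heat shock chaperone genes, 3 lay above every control and 2 below. Hspa1a was at 0.382 to 1.64 CPM in the controls, 1.99 CPM in KO library 2, 11.2 and 9.23 CPM in KO libraries 4 and 5, and 105 and 167 CPM in KO libraries 6 and 7. Its near-identical copy Hspa1b makes its reads uncertain. The mitochondrial chaperone gene Hspe1 had a log2 difference of -1.09 (SE 0.31). Pdgfa, a growth factor gene, was the only one of 17 profibrotic and inflammatory factors (5.88%) above every control, near the share of all genes. It was at 14.1 to 15 CPM in the controls, 19.1 CPM in KO library 2 and 30.4 to 44.9 CPM in the others. Among 17 interferon-stimulated genes, Oas1a was at 4.37 to 6.54 CPM in the controls and 0.527 to 2.61 CPM in the KO libraries. Tap1 lay above every control and Usp18, like Oas1a, below, which is 5.88% above and 11.8% below, near the shares of all genes.

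Some leukocyte genes were lower in all 5 KO libraries, but the leukocyte list as a whole was not. The summed level of the macrophage and leukocyte list was 139, 114 and 125 CPM in controls 1 to 3 and 32.0, 36.5, 36.5, 73.8 and 71.0 CPM in KO libraries 2, 4, 5, 6 and 7. That these sums did not overlap rested on Coro1a: without it, a sum chosen after its values were seen, control 2 was at 56.2 CPM, below KO libraries 6 and 7 at 64.1 and 57.9 CPM. The list's median difference from the control mean, in log2 CPM, was -0.84 in control 2, -2.19, -2.25 and -1.80 in KO libraries 2, 4 and 5, and -0.15 and -0.41 in KO libraries 6 and 7. Of 20 genes tested, 4 lay below every control and 0 above, against 9.65% and 6.44% of all genes. Coro1a, an actin regulator gene on the leukocyte list, was at 39.8, 57.4 and 39.0 CPM in the controls and 19.0, 13.6, 12.9, 9.71 and 13.1 CPM in the KO libraries (log2 difference -1.73, SE 0.26). It did not move with the rest of the list. Coro1a was highest in control 2, where the rest summed lowest among the controls. It was lowest in KO library 6, where the rest summed highest among the KO libraries. The signalling adaptor genes Fcer1g and Tyrobp had at most 2.90 and 0.865 CPM in a KO library against at least 7.43 and 1.43 CPM in a control. In the 3 Pkd1-line controls Fcer1g was at 0.599 to 1.45 CPM and Tyrobp at 0.0921 to 0.814 CPM. The Cep120 KO libraries thus did not lie below those outside controls in these genes. They did in Coro1a, which was at 27.0 to 27.9 CPM in the Pkd1-line controls. Laptm5, a lysosomal gene of blood cells, was at 7.25 CPM in KO library 7, close to the 7.63 CPM of control 3. The defining leukocyte gene Ptprc was at 3.19 to 6.49 CPM in the controls and 0.564 to 3.80 CPM in the KO libraries, so the groups overlapped. Csf1r, a macrophage receptor gene, was at 5.50, 2.05 and 5.40 CPM in the controls, had no read in KO library 2 (3 reads would be 0.206 CPM), and was at 3.70 and 3.69 CPM in KO libraries 6 and 7, above control 2.

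Platelet and red cell transcripts varied too much among the controls to be read in the same way. The platelet chemokine gene Pf4 was at 38.3, 317 and 4.42 CPM in the controls, and no KO library exceeded 2.76 CPM, with no read in KO library 2. The summed erythroid and platelet list was at 639, 8130 and 4020 CPM in the controls and 8.25, 129, 142, 1200 and 795 CPM in the KO libraries, so KO libraries 6 and 7 overlapped control 1. The part of blood cells in the lower leukocyte and platelet genes was not tested.

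Some glycolysis genes were lower in all 5 KO libraries. Of 23 measured gene records, 9 (39.1%) lay below every control, against 9.65% of all genes, and 0 above, and the median log2 difference was -0.55. Ldha, the lactate dehydrogenase A gene, was at 4100, 3010 and 3290 CPM in the controls, 2410 CPM in KO library 2 and 1280, 1160, 1020 and 1040 CPM in KO libraries 4 to 7 (log2 difference -1.33, SE 0.32). Pgk1, which encodes phosphoglycerate kinase, was at 741 to 1000 CPM, 688 CPM and 324 to 418 CPM in controls, KO library 2 and the others. Eno1b, a gene record nearly identical to the enolase gene Eno1 and so uncertain, was at 1440, 1100 and 1770 CPM in the controls and 303 to 738 CPM in the KO libraries, with 422 CPM in KO library 2. The list's median was -0.32 in KO library 2, -0.27 and -0.30 in KO libraries 4 and 5, and -1.17 and -0.94 in KO libraries 6 and 7. With total-count scaling the list's median was -0.12 and none of the 9 genes lay below every control under all 5 scalings.

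Many genes of ribosomes, the respiratory chain and the proteasome were also lower, with the larger differences in KO libraries 4 to 7. Over all genes, 9.65% lay below every control and 6.02% were at least 1.5-fold below in KO libraries 4 to 7 only. Of 79 cytoplasmic ribosomal protein genes, 64 (81.0%) lay below every control, and 71 were beyond the margin in KO libraries 4 to 7 only. Their median was -0.19 in KO library 2 and -1.13 to -1.32 in KO libraries 4 to 7. Many such genes have processed copies that can share reads. Of 54 respiratory chain genes, 39 (72.2%) lay below every control, among them Ndufa6, Ndufb10 and Ndufs8 of complex I, and the list's median was -0.23 in KO library 2 and -0.88 to -1.34 in the others. Of 32 proteasome subunit genes, 15 (46.9%) did so, with a median of -0.14 in KO library 2. These are short transcripts. Length and GC offsets took the median log2 difference from -0.97 to -0.42 for ribosomal genes, from -0.91 to -0.21 for respiratory chain genes and from -0.52 to -0.18 for proteasome genes. Under all 5 scalings, 3 ribosomal genes, 0 respiratory chain genes and 1 proteasome gene, Psma2, lay below every control.

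Some centriole and centrosome genes were higher, mainly in KO libraries 4 to 7. Of 43 genes, 8 (18.6%) lay above every control and 2 (Cetn3 and Poc1a) below, against 6.44% and 9.65% of all genes. At least 1.5-fold above the controls in KO libraries 4 to 7 only were 15 of the 43, against 8.24% of all genes. The list's median was -0.10 in KO library 2 and 0.71 to 1.12 in the others. Fbf1, a distal appendage gene, was at 0.765, 0.909 and 1.28 CPM in the controls, 1.51 CPM in KO library 2 and 6.35, 8.33, 17.4 and 23.3 CPM in KO libraries 4 to 7. Cep135, a gene of the cartwheel region, was at 0.256 to 0.956 CPM, 1.44 CPM and 2.78 to 10.2 CPM, and the distal appendage gene Cep83 at 2.88 to 3.70 CPM, 4.12 CPM and 6.78 to 14.2 CPM. These 3 genes were above the controls under all 5 scalings.

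Of 48 primary cilium genes, 5 lay above every control and 6 below, which is 10.4% and 12.5% against 6.44% and 9.65% of all genes. Ift172, a gene of the intraflagellar transport B complex, was at 4.91 to 5.75 CPM in the controls and 7.29 to 18.1 CPM in the KO libraries. Nphp4, a gene of the transition zone, was at 0.961 to 1.66 against 2.08 to 7.25 CPM. Ift27, a small GTPase gene of the same transport complex, was at 77.0 to 107 against 45.5 to 69.7 CPM. None of these 11 genes kept its side under all 5 scalings. Of 15 cystic kidney disease genes, 2 (13.3%) lay above every control and 0 below. Dzip1l was at 1.99 to 4.89 against 5.57 to 13.1 CPM, and Anks6, whose product binds nephrocystins, at 0.255 to 1.35 against 2.13 to 4.17 CPM.

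Genes of the cell cycle differed little across all 5 libraries. Of 36 mitosis genes, Kif11, the spindle motor gene, lay above every control and Pttg1, the securin gene, below. That is 2.78% in each direction, against 6.44% above and 9.65% below over all genes. At least 1.5-fold above the controls in KO libraries 4 to 7 only were 10 of the 36, against 8.24% of all genes. Pttg1 was at 90.9, 72.0 and 71.6 CPM in the controls and 48.5, 42.3, 43.4, 42.6 and 40.2 CPM in KO libraries 2, 4, 5, 6 and 7, so KO library 2 lay with the other KO libraries (log2 difference -0.85, SE 0.17). Of 41 DNA replication genes, 2 (4.88%) lay above every control and 4 (9.76%) below, close to the 6.44% and 9.65% of all genes, and the list's median log2 difference of -0.17 became 0.24 with total-count scaling. The thymidine kinase gene Tk1 was at 188 to 210 CPM in the controls, 145 CPM in KO library 2 and 108 to 124 CPM in the others. Gins3, a helicase subunit gene, was at 6.67 to 9.91 against 12.2 to 23.8 CPM. Rfc4, a clamp loader gene, had a log2 difference of -0.68 (SE 0.23) that turned to 0.06 with length and GC offsets.

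Ureteric genes were not lower in all 5 libraries. None of 25 tip and RET signalling genes lay beyond all controls in every KO library, and of 28 lineage genes only Spint2, a protease inhibitor gene, did so. Spint2 was at 215, 188 and 211 CPM in KO libraries 2, 4 and 5 and 46.3 and 54.6 CPM in KO libraries 6 and 7, against 221 to 256 CPM in the controls. Of 23 trunk and collecting duct genes, the ligand gene Wnt7b and the sodium channel gene Scnn1a lay above every control and the water channel gene Aqp4 and the transcription factor gene Elf5 below. That is 8.7% in each direction, against 6.44% above and 9.65% below over all genes. Wnt7b was at 4.68 to 5.61 CPM in the controls, 6.19 CPM in KO library 2, 13.9 and 15.5 CPM in KO libraries 4 and 5, and 7.19 and 7.25 CPM in KO libraries 6 and 7. Most ureteric differences were those of KO libraries 6 and 7 alone. In those libraries only, 11 of 25 tip genes, 7 of 23 trunk genes and 17 of 28 lineage genes were at least 1.5-fold below every control. Over all genes that share was 9.76%. The tip list's median was -1.39 and -0.74 in KO libraries 6 and 7 and between -0.08 and 0.10 in the other KO libraries. Over all 8 libraries the log2 medians of these 3 lists, -0.19, -0.19 and -0.02, turned positive with total-count scaling.

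**Figure D3:**
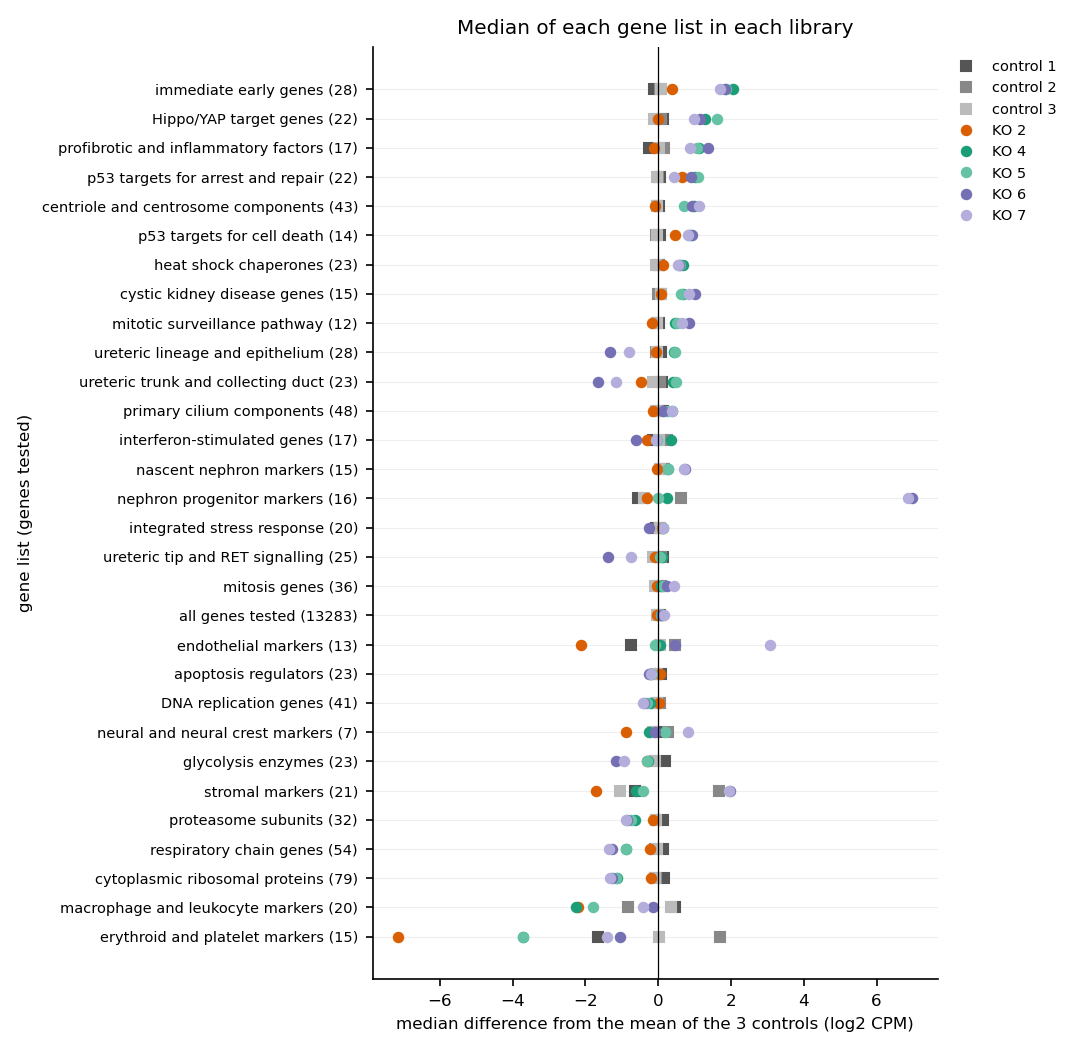
Median over each gene list of the difference from the mean of the 3 controls, in log2 CPM, with squares for controls and circles for KO libraries and the number of genes tested in brackets. KO library 2 (orange) lies away from the controls toward the other KO libraries in the p53 lists (0.65 and 0.47) but not in the centriole list (-0.10), and KO libraries 6 and 7 stand alone in the nephron progenitor list (6.98 and 6.86).

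The differences seen only in KO libraries 6 and 7 were led by mesenchymal and nephron progenitor genes. Des, the desmin gene of muscle and stroma, was at 235 and 209 CPM in KO libraries 6 and 7 and at most 0.534 CPM in the other 6 libraries. Hoxa9, a posterior homeobox gene, was at 106 and 81.1 CPM against at most 0.736 CPM, and Osr1, a factor gene of the intermediate mesoderm, at 213 and 151 CPM against at most 1.51 CPM. The extracellular matrix gene Vcan was at 197 and 165 CPM against at most 1.67 CPM. Six2, which keeps nephron progenitors undifferentiated, was at 134 and 91.2 CPM in these libraries. In KO libraries 2, 4 and 5 Six2 was at 1.24, 0.854 and 1.02 CPM, from 18, 16 and 25 reads. The controls had 0.649 to 0.769 CPM, from 12 to 15 reads. These are few reads, and Six2 did not lie above every control under all 5 scalings. In all, 12 of 16 nephron progenitor genes tested and 7 of 21 stromal genes were at least 1.5-fold above the controls in KO libraries 6 and 7 only, against 11.6% of all genes. Downward, Ackr3, a chemokine scavenger receptor gene, was at 8.92 and 2.80 CPM against 139 to 158 CPM. The zinc transporter gene Slc39a1 and the glycine cleavage gene Amt were at 7.34 to 10.7 CPM in KO libraries 6 and 7 and at 147 to 434 CPM in the other 6. The ciliary gene Rpgrip1 was at 2.07 and 2.09 CPM in KO libraries 6 and 7, at 106 to 164 CPM in the controls and KO library 2, and at 324 and 410 CPM in KO libraries 4 and 5, beyond the margin in the opposite direction. The nephron progenitor, stromal and ureteric sums given above moved with these genes, and their part in the differences was not tested.

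The genes named for a difference in KO libraries 4 to 7 but not 2 are the 4 clearest in each direction, of 1094 and 799, and stand for no theme of that class, which also holds the 71 ribosomal protein genes above. Gadd45g, a stress-induced gene of the Gadd45 family, was at 0.573 to 0.833 CPM in the controls, 0.275 CPM in KO library 2, 11.3 and 16.5 CPM in KO libraries 4 and 5, and 109 and 96.0 CPM in KO libraries 6 and 7. Arc, an immediate early gene, was at 3.44 to 5.00 CPM in the controls, 3.99 CPM in KO library 2 and 43.0 to 95.7 CPM in the others. Tcof1, a nucleolar gene, was at 4.5 to 6.05 CPM in the controls, 1.79 CPM in KO library 2 and 60.0 to 128 CPM in the others. The linker histone genes H1f1 and H1f5 and the core histone gene H2ac7 were lower in KO libraries 4 to 7. H1f5 was at 46.1 to 67.1 CPM in the controls, 65.3 CPM in KO library 2 and 10.9 to 14.1 CPM in the others. These histone genes have near-identical relatives and lack long poly(A) tails, so their reads are uncertain. Hprt, a purine salvage gene, was at 361 to 404 CPM in the controls, 363 CPM in KO library 2 and 78.9 to 116 CPM in the others. In this class the median transcript length was 4960 bases for higher and 1650 bases for lower genes, and 98 of the 1094 higher genes also had all 5 KO libraries above the Pkd1-line controls.

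KO libraries 2 and 7 each had genes of their own. In KO library 7 alone, the splicing-related gene Rsrp1 was at 419 CPM against 37.8 to 66.4 CPM in the other KO libraries and 12.2 to 57.1 CPM in the controls. Hoxb2 was at 40.8 CPM against 4.80 to 10.8 CPM in the other 7 libraries, Hgh1 at 26.9 against 2.29 to 8.65 CPM, and the cytochrome oxidase assembly gene Cox11 at 16.1 against 2.33 to 4.65 CPM. In KO library 2 alone, Fam177a had no read, which allows up to 0.206 CPM at 3 reads, while the other 7 libraries had 11 to 23.4 CPM. Snai2, a transcriptional repressor of epithelial genes, Cdh6, a cadherin of early nephrons, and Elavl4, a neuronal RNA-binding protein gene, were lowest in KO library 2, at 0.0, 0.137 and 0.412 CPM. Their controls were at 0.320 to 4.72, 0.828 to 2.42 and 2.47 to 3.12 CPM, and KO libraries 6 and 7 at 15.2 to 23.1 CPM, so the group's log2 differences of 2.0, 2.72 and 1.74 describe no single library.

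**Figure D4:**
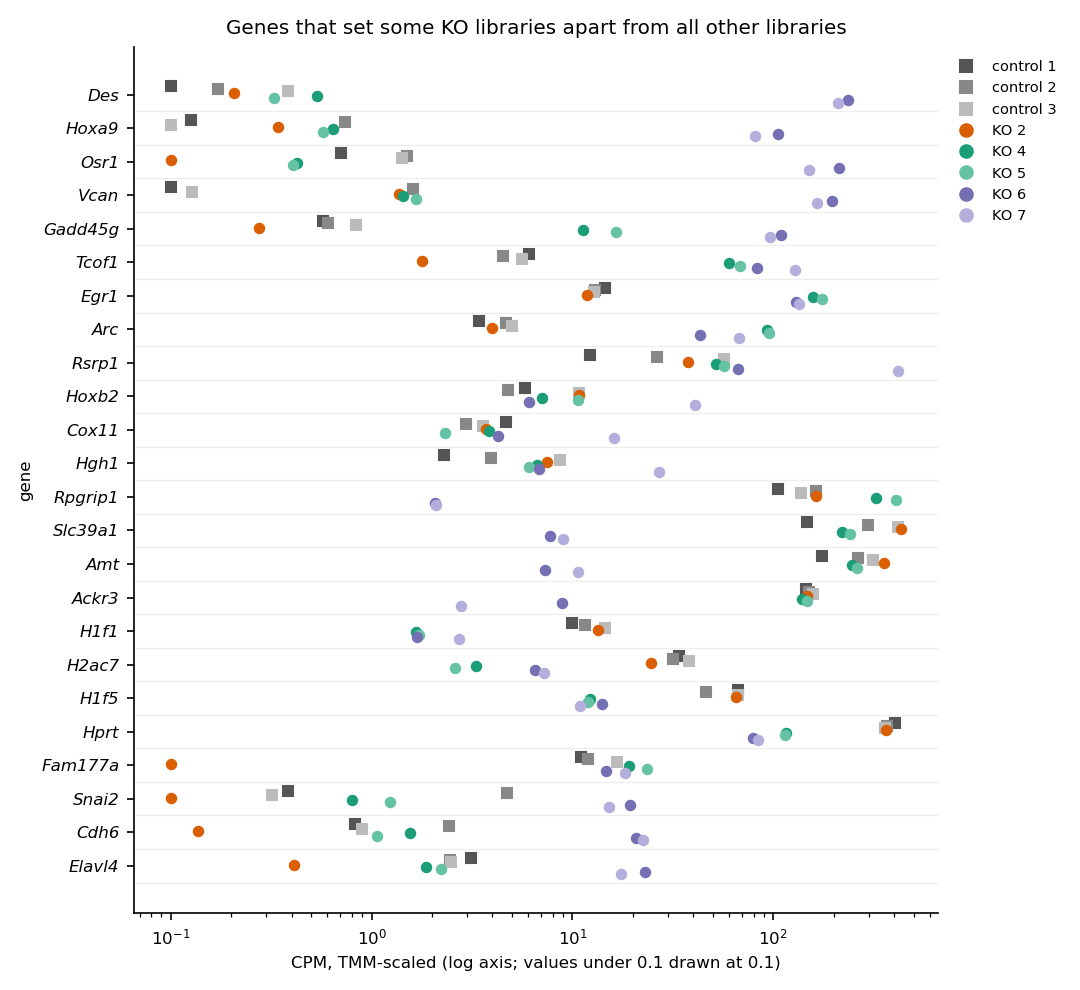
TMM-scaled CPM on a log axis for the genes that most set a combination of KO libraries apart from all other libraries, with squares for controls and circles for KO libraries. Des, Hoxa9, Osr1 and Vcan are high only in KO libraries 6 and 7, Egr1 and Arc only in KO libraries 4 to 7, and Fam177a is at 0 reads only in KO library 2.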

How the data were processed

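RNA-seq libraries of sorted E13.5 mouse ureteric bud cells were compared, 5 Cep120 KO against 3 controls, grouped by their labels. The authors deposited estimated counts per gene, of which 88.4 to 91.6% were whole, together with TPM values and log2 CPM values to which they had added a small constant. DRAGEN and the mm9 build appear, per the submitters' processing notes, but what each was used for is not given in the sources used here. Gene positions printed here are from GENCODE M21 (GRCm38) and promoter windows from RefSeq (GRCm38.p6), neither of them mm9.

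Of 55774 lines, 287 repeats of a gene were dropped. Counts of 21936 protein-coding genes were rounded, and 13283 passed edgeR's expression filter (minimum count 10). The test was edgeR 4.0.16's quasi-likelihood test (R 4.3.3, TMM scaling, 6 residual degrees of freedom) with Benjamini-Hochberg adjustment at 0.05. The SE is the log2 difference divided by the square root of its F statistic. A gene lay above or below every control when all 5 KO libraries did so in log2 CPM (prior count 2), and the margin was 1.5-fold. DESeq2 1.42.0 and limma 3.58.1, other scalings and filters, and fits without single libraries were alternatives, and TPM was used as log2(TPM + 0.5). The fitting script was tested on simulated data. Total counts of 16293803 to 27475859 per library set the precision, and a count of 0 allows up to 3 reads.

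The libraries, gene lists and rules were chosen with earlier results of these data known. Named were Cep120, the 10 genes with the widest gap in each direction (mean of at least 5 CPM, without predicted genes, Xist or Y-linked genes), the 4 clearest genes of each of the 3 most frequent library combinations per direction, and up to 3 members per list with the smallest p among those beyond every control. Genes named beyond that rule, mostly to complete a small count, were chosen after their values were seen. Transcript tables were not used here, and 1 gene that the rule names is not reported here.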

Additional observations from a re-analysis of the deposited data

Results flagged for a closer look

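For each of the 106 named genes, the 5 KO libraries were searched for 1 library that stood apart from the other 4. The measure is that library's gap to its nearest neighbour divided by the range of all 5, and a value above Dixon's 95% limit for 5 samples is listed. Chance alone lists about 1 in 20 groups, but many of these genes were named because some KO libraries stood apart, so that rate does not apply to them. Here 23 of 106 genes were listed, 18 of them for KO library 2.

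KO library 2 stood apart as the lowest KO library, with ratios of 0.781 for Plk2, 0.82 for Tcof1, 0.889 for Egr1, 0.747 for Arc, 0.916 for Fam177a, 0.864 for Sesn2, 0.824 for Arhgef17 and 0.723 for Ddit3. In each of these genes but Egr1, Tcof1, Arc and Fam177a, KO library 2 was still above every control.

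KO library 2 stood apart as the highest KO library, with ratios of 0.766 for H1f1, 0.853 for H1f5, 0.75 for Hprt, 0.789 for Cycs, 0.837 for Rfc4, 0.754 for Hspe1, 0.732 for Ldha, 0.808 for Rpl22, 0.735 for Psma2 and 0.747 for Psmb2. It lay inside the control range in H1f1, H1f5 and Hprt and below every control in the others.

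The other genes concerned a different library. The ratios were 0.727 for Ggct in KO library 5, the highest, 0.766 for Rsrp1 in KO library 7, the highest, 0.861 for Hgh1 in KO library 7, the highest, 0.887 for Usp18 in KO library 6, the lowest and 0.823 for Anks6 in KO library 5, the highest. Their causes were not tested.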

How the results depend on the processing

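The limits of this comparison are 5 uneven KO libraries, no labelled batch, and depth: differences in genes with few reads were not detectable. No paired analysis was possible because KO and control libraries share only replicate number 2. The number of genes called by edgeR ran from 0 to 3620 when single libraries were left out, 3620 without KO library 2 and 1 without control 3. It was 2443 with all 14 libraries in the fit, DESeq2 called 1899 and limma-voom 5652. Genes above every control ran from 1020 to 2921 and genes below from 1160 to 2733 without single libraries, and those beyond the 1.5-fold margin from 87 to 1169 and from 54 to 851. The high end was without KO library 2 each time. With total-count scaling the 4 counts were 1868, 590, 157 and 15, and with the deposited TPM 2827, 240, 128 and 0. Without KO libraries 6 and 7, 1464 genes lay above every control, 120 above the margin and 113 below it. Without KO libraries 4 and 5 these were 1510, 184 and 163. Length and GC offsets left 634 genes below every control. The share of higher genes among those beyond every control was 40.0%, and 76.0% with total-count scaling, 92.2% with TPM, 53.2% with length and GC offsets and 51.7% without KO library 2.

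Over 106 genes, 21 log2 differences changed sign, 1877 kept sign and side of the threshold, and 321 kept sign and passed it. Without KO libraries 6 and 7 the sign changed in Osr1 (-2.01), Cox11 (-0.13), Slc39a1 (0.08), Amt (0.23), Snai2 (-1.36), Cdh6 (-0.55) and Elavl4 (-0.78), and in limma-voom in Osr1 (-1.1), Cox11 (-0.14), Snai2 (-0.22), Cdh6 (-0.01) and Elavl4 (-0.21). These genes differ between the libraries left out or given low weight and the rest. Without KO libraries 4 and 5 it changed in Rpgrip1 (-1.26) and Fam177a (-0.25), in limma-trend in Rpgrip1 (-1.33) and Fam177a (-0.93), and with length and GC offsets in Rpgrip1 (-0.16) and Rfc4 (0.06), where the cause was not tested. Leaving out single libraries moved Cox11 from -0.03 to 0.93, Rpgrip1 from -0.11 to 0.76 and Fam177a from -0.00064 to 0.51.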

Other observations

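Because Chac2, Ggct, Pir and Nqo1 were among the genes with the widest downward gaps, a list of 57 glutathione and antioxidant genes was written after these values were seen, and it carries no test. Of 52 genes measured, 28 (53.8%) lay below every control and 0 above, against 9.65% of all genes below. The 28 include Chac2, Ggct, Pir and Nqo1 themselves, so part of this share follows from how the list was made. The list's median difference from the control mean, in log2 CPM, was -0.33 in KO library 2, -0.48 and -0.42 in KO libraries 4 and 5, and -0.86 and -0.82 in KO libraries 6 and 7. Its median log2 difference of -0.50 was -0.09 with total-count scaling, and 4 genes (Fth1, Prdx1, Pir and Gstm6) lay below every control under all 5 scalings.

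Most glutathione S-transferase genes below every control had their lowest level in KO library 6 or 7. These were Gstt1, Gstt2, Gstt3, Gstm2, Gstm5, Gstp1, Gstp2, Mgst1 and Mgst3. Gstt1, for example, was at 5.15 and 4.96 CPM in KO libraries 6 and 7 and at 30.2 to 42.2 CPM in KO libraries 2, 4 and 5. Fewer, namely Gsta4, Gstm7, Gstm6 and Gstk1, had their lowest level outside KO libraries 6 and 7. Gsta4 was at 165, 127 and 113 CPM in the controls and 57.3, 71.7, 72.3, 88.6 and 82.2 CPM in KO libraries 2, 4, 5, 6 and 7. KO library 2 was thus the lowest of all 8 libraries. Gstm7 was at 24.8 to 29.5 CPM in the controls, 15.5 CPM in KO library 2 and 17.4 to 23.0 CPM in the other KO libraries. The haem oxygenase gene Hmox1 was at 20.1 to 21.7 CPM in the controls and 12.8 to 16.6 CPM in the KO libraries. Gclc and Gclm, which encode the enzyme that makes the first step of glutathione synthesis, were at 13.6 to 14.1 and 4.67 to 6.35 CPM in the KO libraries against 15.9 to 20.3 and 7.33 to 9.52 CPM in the controls. Fth1, the ferritin heavy chain gene, was at 3240, 3330 and 2770 CPM in the controls, 2150 CPM in KO library 2, and 877 to 1240 CPM in the other KO libraries. The transferase genes belong to families of close relatives, so their reads are uncertain.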
